A study of Rattus norvegicus with 9 samples.

Results

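Rat bone marrow-derived dendritic cells that received lipopolysaccharide together with extracellular vesicles (EVs) were compared with untreated cells of the same kind, to show where the combined treatment left the transcriptome relative to the resting state. All 11141 genes with at least 1 FPKM (a read density that corrects for the length of the gene and the number of assigned reads in its library) in at least 3 of the 9 libraries were compared, out of 20442 genes in the deposited table. The comparison uses 6 of the 9 libraries, with 3 labelled Control and 3 labelled EVs, which are called LPS+EVs here because their treatment label names LPS and EVs. The other 3 libraries, LPS without EVs, enter the fit and stand beside the results. All cells were wild-type primary cells grown with 10% serum and 20 ng/mL each of GM-CSF and IL-4, cytokines that Control cells received too. LPS was given at 1 µg/mL for 24 h, and the EVs came from ASCs, an abbreviation the labels do not spell out. The protocol also lists 50 ng/mL of an agent without naming it. Whether that agent was the EVs and which groups received it are not stated, so what it adds to the combined treatment and what the EVs add cannot be told apart. No group had EVs but no LPS. The title of the study concerns mitochondria carried by the EVs and the metabolism of dendritic cells, so genes of mitochondria are given in full. The labels call the replicates biological without tying them to different rats, and p-values therefore measure only the spread between these cultures, which may be technical.

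Dendritic cells take up antigen at rest and, once a Toll-like receptor senses a microbial product, turn into producers of cytokines that present antigen to T cells. Lipopolysaccharide binds Tlr4 with its coreceptors Cd14 and Ly96 and signals through NF-kB and through type I interferon. In rodent myeloid cells it is known for inducing nitric oxide synthase and for a move from mitochondrial respiration toward glycolysis. Cultures grown from marrow in GM-CSF and IL-4 hold macrophage-like cells and dividing precursors beside dendritic cells.

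Libraries held 32148519 to 39407116 reads assigned to genes, recovered from the steps between FPKM values, and 9846 to 10821 genes reached 1 FPKM in each. For a gene 1 kilobase long, 3 reads stand for 0.0761 to 0.0933 FPKM, which reflects counting error alone. The first principal component (65.6% of the variance) separated Control from both treated groups, and the second (21.0%) held the library numbered 2 apart from numbers 1 and 3 within each group. Markers of macrophages were abundant in Control, with the receptor gene Csf1r at 155, 180.2 and 176 FPKM, and the dendritic integrin Itgax stood at 31.1, 52 and 38.1 FPKM. Flt3, a receptor of conventional dendritic cells, stayed at 0.108 FPKM or less in all 9 libraries, and the dendritic transcription factor Zbtb46 at 1.41 to 2.07 FPKM in Control and 1.57 to 3.36 FPKM in LPS+EVs. In bulk RNA, fewer cells of a type and less RNA per cell cannot be told apart.

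With limma on log2(FPKM + 1), 1505 genes were higher and 3436 lower in LPS+EVs than in Control at a Benjamini-Hochberg adjusted p under 0.05, that is 13.5% and 30.8% of the tested genes and 44.3% together. Of these, 588 were higher and 1537 lower by at least 2-fold. The 3 LPS+EVs values lay entirely above the 3 Control values for 19.6% of tested genes and entirely below for 40.6%, or 60.2% in all. The median log2 difference of all tested genes was -0.19, and this shift moved with the scaling: with median-of-ratios scaling the median was 0.01 and the calls split into 2244 higher and 2454 lower, so that 47.8% of called genes were higher in place of 30.5%. Differences near -0.19 are therefore read as no shift against the bulk of genes. A log2 difference on this scale understates the change of a gene near 0 FPKM in either group.

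**Figure D1:**
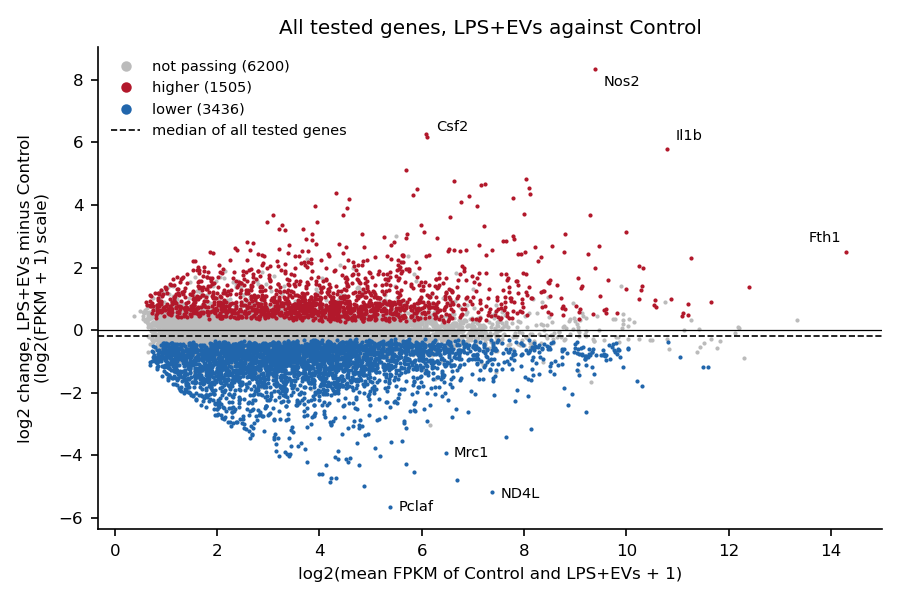
Each point is 1 of the 11141 tested genes, with the log2 of its mean FPKM over Control and LPS+EVs (plus 1) on the horizontal axis and its log2 change on the vertical axis. Genes that passed as higher (1505) are red and those that passed as lower (3436) blue, and the dashed line marks the median of all tested genes at -0.19, below 0.

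The largest rise was that of Nos2, the inducible nitric oxide synthase, which stood at 2.88, 2.88 and 3.27 FPKM in the Control libraries and at 1095, 1801 and 1109 FPKM in the LPS+EVs libraries. Every LPS+EVs library was above every Control library, and the means differed 444-fold (3.01 ± 0.222 against 1335 ± 404 FPKM, mean ± SD, n = 3 each, log2 8.34, SE 0.23, adjusted p = 8.73e-07 by limma). Il12b, a subunit of interleukin-12 and interleukin-23, was near 0 in Control (0.209, 0.0713 and 0.36 FPKM) and reached 39.1, 300.2 and 63.5 FPKM in LPS+EVs (log2 6.25, SE 0.87, adjusted p = 0.000826). Its highest value was in library 2, as it was in LPS (30.8, 275 and 66 FPKM).

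Csf2 encodes GM-CSF, the growth factor that was also in the medium, and rose from 0.345, 0.55 and 1.1 FPKM to 224, 127 and 55.1 FPKM (log2 6.16, SE 0.46, adjusted p = 3.19e-05). Here library 1 of LPS+EVs was highest and library 3 lowest, still far above Control. Il1b, which encodes the fever-inducing cytokine interleukin-1 beta, went from 49.7, 68.7 and 64 FPKM to 2986, 4671 and 2844 FPKM (log2 5.80, SE 0.31, adjusted p = 5.14e-06), so that it was already expressed in Control. The other large rises were Ptges, which makes prostaglandin E2 (log2 5.12), the interferon-induced Ifit3 (4.82), the iron-siderophore binding protein gene Lcn2 (4.76), the neutrophil-attracting chemokines Cxcl1 (4.67) and Cxcl2 (4.54), and Mxd1, an antagonist of Myc (4.63). These rises, and the falls below, are ranked among genes that passed and reached 5 FPKM in a group. Lack of overlap between the groups was a condition of that choice. Symbols starting with LOC, RGD, AABR, AC, AY, NEWGENE or Mir were left out of the ranking.

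The largest fall was that of Pclaf, a partner of the replication clamp, from 90.4, 74.1 and 77.3 FPKM in Control to 1.71, 0 and 0.56 FPKM in LPS+EVs (log2 -5.65, SE 0.33, adjusted p = 8.76e-06). The next was ND4L, a mitochondrially encoded subunit of respiratory complex I, which is described with its family further on. Ube2c, a ubiquitin-conjugating enzyme of the anaphase-promoting complex, fell from 61.7, 54.4 and 51.2 to 0.441, 0.757 and 1.3 FPKM (log2 -4.98, SE 0.22, adjusted p = 2.39e-06). Of the 10 largest falls, 6 more serve cell division: Ccna2 and Ccnb2 are mitotic cyclins, Top2a untangles chromosomes, Kif20a and Racgap1 act in cytokinesis and Stmn1 destabilises microtubules (log2 -4.85 to -4.54). Hba-a2, an alpha globin of red cell precursors, completed the 10 with 53.7, 107 and 437 FPKM in Control and 2.32, 4.01 and 6.58 FPKM in LPS+EVs (log2 -4.77, SE 0.68, adjusted p = 0.000904). Its Control values spread widely, with library 3 far above the other two.

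**Figure D2:**
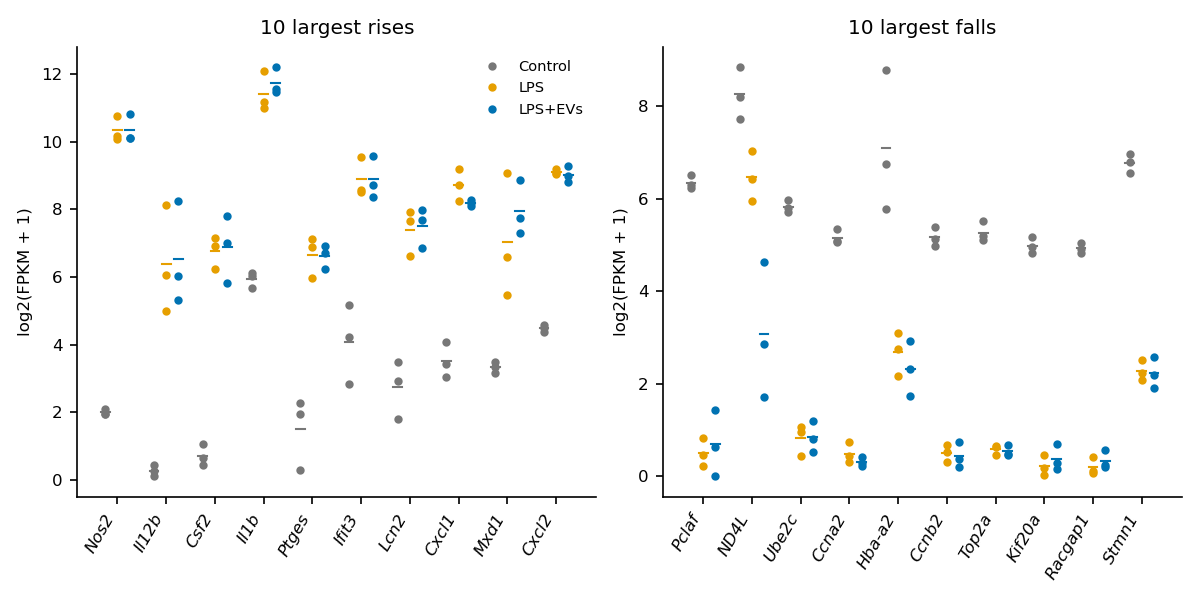
The 10 largest rises (left) and falls (right) of LPS+EVs against Control, as log2(FPKM + 1) in each library (points) with the group mean (bar) for Control, LPS and LPS+EVs. Blue and grey points do not overlap for any of the 20 genes, which was a condition of their choice. For ND4L the LPS+EVs libraries (2.3 to 23.9 FPKM) also lie below the LPS libraries. That difference did not pass by limma (adjusted p = 0.999), and how many of all tested genes lie so was not counted.

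Secreted inflammatory mediators were the gene group with the highest median. List counts here and below are to be set beside 13.5% higher and 30.8% lower of all tested genes in the main fit. Among inflammatory cytokines 15 of 22 tested genes rose and none fell, with a median log2 difference of 2.08 against -0.19 over all tested genes. Il1a, the second interleukin-1 agonist, rose from 22.4, 21 and 32.8 to 658, 506 and 424 FPKM (log2 4.33, SE 0.20, adjusted p = 3.47e-06). Ebi3, a subunit shared by interleukin-27 and interleukin-35, rose from 8.8, 9.53 and 13 to 149, 234 and 308 FPKM (log2 4.29, SE 0.25, adjusted p = 8.76e-06). Il6, a cytokine of the acute phase, stood at 4.15, 1.16 and 9.19 FPKM in Control and 116, 147 and 75.1 FPKM in LPS+EVs (log2 4.50, SE 0.49, adjusted p = 0.000234), with no overlap.

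Tnf, the classical early cytokine of the LPS response, did not pass in these cultures at 24 h. Its values were 14.1, 25.9 and 15.3 FPKM in Control and 20.1, 35.5 and 16.6 FPKM in LPS+EVs, and the groups overlapped (log2 0.34, adjusted p = 0.423, 95% interval -0.40 to 1.08). With the replicate number as a block the Tnf difference passed (adjusted p = 0.0448, range over all alternatives 0.00665 to 0.939). Il10, the main cytokine that restrains dendritic cells, was listed at 0 in 2 Control libraries and at 0.0723 FPKM in the third, and stood at 2.22, 0.99 and 3.89 FPKM in LPS+EVs (log2 1.62, SE 0.43, adjusted p = 0.015).

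Of 25 tested chemokine genes 15 rose and 1 fell, with a median of 1.40 (17 and 3 with the replicate block). Cxcl2 went from 19.8, 22.6 and 21.6 FPKM to 446, 621 and 503 FPKM (log2 4.54, SE 0.13, adjusted p = 8.73e-07), without overlap. Cxcl1 went from 9.73, 7.22 and 15.9 to 289.8, 271 and 308 FPKM (adjusted p = 1.28e-05). Ccl3, which draws monocytes and lymphocytes, was abundant before treatment and rose from 157, 275 and 211 to 1788, 1998 and 1726 FPKM (log2 3.13, adjusted p = 1.01e-05), and Cxcl3 rose by log2 3.69 (adjusted p = 0.000145). Of receptors and migration genes 4 were higher and 5 lower of 19, near the 13.5% and 30.8% of all tested genes, so only single genes are described. With the block the counts were 8 and 5, where 1984 and 4162 of all 11141 tested genes were higher and lower. Cxcr2, the receptor for Cxcl1, Cxcl2 and Cxcl3, fell from 18, 21.2 and 15.9 FPKM to 0.412, 0.0625 and 0.259 FPKM (log2 -3.96, adjusted p = 4.13e-06), whereas the adhesion molecule Icam1 (log2 1.83, adjusted p = 0.00137) and its integrin partner chain Itgam (1.03, adjusted p = 0.000181) rose. Ccr7, which guides dendritic cells to lymph nodes, stood at 48.5, 65.8 and 103 FPKM in Control and 109, 195 and 246 FPKM in LPS+EVs without overlap, and missed the threshold narrowly (log2 1.32, 95% interval 0.24 to 2.40, adjusted p = 0.0504). Among other settings it passed with median-of-ratios scaling (0.0242), with the replicate block (0.00136), without Control replicate 3 (0.0478), without LPS replicate 2 (0.0403) or 3 (0.0175) and without LPS+EVs replicate 1 (0.0372, range over all alternatives 0.0005 to 0.158).

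Promoters of 3 genes that rose, picked because they hold a kappa B word, the DNA word bound by NF-kB, show where it lies before the start of transcription. The last 150 bases before each start are printed 5′ to 3′ from RefSeq (build GRCr8), with matches in capitals: GGG, any 2 bases and then TTTCC, on either strand. Cxcl1 (chr14:17479322-17479471, minus strand) and Cxcl2 (chr14:17467256-17467405, minus strand) hold 2 matches each, and Nfkbia (chr6:78597073-78597222, minus strand), which encodes the inhibitor of NF-kB, holds 1.
Cxcl1: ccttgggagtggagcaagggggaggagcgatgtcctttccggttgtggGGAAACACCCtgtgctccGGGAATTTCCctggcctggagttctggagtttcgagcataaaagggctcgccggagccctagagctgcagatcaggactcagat
Cxcl2: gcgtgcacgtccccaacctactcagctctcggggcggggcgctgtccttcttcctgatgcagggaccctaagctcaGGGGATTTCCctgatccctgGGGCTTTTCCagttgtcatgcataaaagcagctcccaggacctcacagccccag
Nfkbia: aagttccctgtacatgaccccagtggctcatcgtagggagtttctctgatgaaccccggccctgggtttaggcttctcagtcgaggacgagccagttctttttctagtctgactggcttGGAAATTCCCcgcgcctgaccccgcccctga
Of chemokine genes tested and matched to a promoter, 5 of 19 (26.3%) held the word in the 250 bases before the start, as did 6 of 27 (22.2%) of the Toll-like receptor and NF-kB list and 2 of 14 (14.3%) of the cytokines, against 1.53% of the 9125 promoters matched to tested genes. A match describes the letters and not binding.

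Genes of Toll-like receptor and NF-kB signalling were higher in 19 and lower in 5 of 34 cases, with a median of 0.76 (8 lower without LPS replicate 2). The share that fell was under the 30.8% of all tested genes. Nfkbia rose from 80.0, 69.5 and 69.8 FPKM to 329.8, 467 and 399 FPKM (log2 2.42, SE 0.20, adjusted p = 5.83e-05). The kinase Irak2, which sustains Toll-like receptor signals, rose by log2 1.80 (adjusted p = 1.85e-05), the inhibitor of apoptosis Birc2 by 1.94 (adjusted p = 3.71e-05) and Tnip1, a brake on NF-kB, by 1.37 (adjusted p = 4.46e-05).

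Of 43 interferon-stimulated genes, the antiviral program that type I interferon switches on, 28 rose and none fell (median 1.49). Ifit3 stood at 6.15, 34.9 and 17.7 FPKM in Control and 421, 768 and 331 FPKM in LPS+EVs (SE 0.57, adjusted p = 0.000374). Library 2 was highest in both groups. Usp18, a protease that damps interferon signalling, rose from 18.5, 38.8 and 23.2 to 144, 177 and 139.9 FPKM (log2 2.53, adjusted p = 0.0001). Isg20, an exonuclease (log2 1.58, adjusted p = 0.000117), and the GTPase Gbp4 (2.07, adjusted p = 0.000466) rose as well.

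The interferon-stimulated response element, searched as GAAA, any 2 bases and GAAA again on either strand, was found in the 250 bases before the start in 20 of 32 matched genes of that list (62.5%), against 2.87% of the promoters of tested genes. The last 150 bases of 2 of them, Ifit3 (chr1:241527176-241527325, plus strand) and Irf7 (chr1:205800024-205800173, minus strand), follow with the match in capitals.
Ifit3: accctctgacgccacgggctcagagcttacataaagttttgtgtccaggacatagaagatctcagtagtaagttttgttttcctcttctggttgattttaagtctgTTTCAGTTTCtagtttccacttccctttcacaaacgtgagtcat
Irf7: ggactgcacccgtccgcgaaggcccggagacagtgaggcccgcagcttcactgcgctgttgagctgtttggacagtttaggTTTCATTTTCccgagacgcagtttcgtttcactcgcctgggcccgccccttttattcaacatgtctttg
Both matches lie on the opposite strand and so are printed as the reverse complement, TTTC, 2 bases and TTTC.

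Costimulatory and maturation genes equip dendritic cells to activate T cells, and 12 of 23 rose while none fell (median 0.99, and 18 with the replicate block, and 1 lower without Control replicate 1). Cd40, the receptor for T cell help, went from 5.06, 9.02 and 15.1 FPKM to 34, 55.2 and 47.8 FPKM (log2 2.20, SE 0.35, adjusted p = 0.0016). Cd80, a ligand of Cd28, went from 16.6, 19.2 and 30.6 to 61.7, 82.8 and 59.8 FPKM (log2 1.61, SE 0.29, adjusted p = 0.00293). Cd86, its close relative, overlapped between groups at 37.9, 62 and 65.3 FPKM in Control and 56.8, 92.5 and 105 FPKM in LPS+EVs (log2 0.61, adjusted p = 0.202). The 95% interval was -0.21 to 1.43, and Cd86 passed under the replicate block (0.0237, range over all alternatives 0.00363 to 0.5). The inhibitory ligand Cd274, known as PD-L1, rose more than either, from 21.4, 26.3 and 30.1 to 267, 304 and 234 FPKM (log2 3.33, SE 0.25, adjusted p = 2.92e-05). The inhibitory ligand Cd200 (log2 2.56), the interleukin-2 receptor chain Il2ra (3.46) and the adhesion receptor Slamf1 (3.06) also rose, each with an adjusted p of 0.000484 or less. Ido1, a tryptophan-degrading enzyme linked to tolerance, was at 1.86, 1.83 and 2.52 FPKM in Control and 9.03, 2.09 and 18.3 FPKM in LPS+EVs. The second LPS+EVs library lay within the Control range and the others above it (log2 1.46, adjusted p = 0.225, 95% interval -0.62 to 3.55). It passed with the block (0.0469) and with the libraries numbered 1 and 3 alone (0.0157).

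Antigen presentation is given by class. For MHC class II, which shows peptides to CD4 T cells, 2 of 20 genes rose and 6 fell (median -0.62, and 3 and 11 with the replicate block). The counts of the main fit are near the 13.5% higher and 30.8% lower of all tested genes. They are not read as a result about the list, and the members below are described one by one. With the block, 1984 of all 11141 tested genes were higher and 4162 lower, so 11 of 20 is a larger share than over all genes. The peptide-loading chains RT1-DMa (217, 341 and 263 against 50.8, 94.5 and 52.3 FPKM, log2 -2.07, adjusted p = 0.00409) and RT1-DMb (log2 -2.27, adjusted p = 0.00521) fell, as did the thiol reductase Ifi30 (log2 -2.11, adjusted p = 3.99e-05). Ciita, the master activator of class II genes, was at 5.28, 22.2 and 7.28 FPKM in Control and 0.301, 3.57 and 1.4 FPKM in LPS+EVs, with library 2 highest in both groups (log2 -2.13, SE 0.60, adjusted p = 0.0201). The Ciita call ended without Control replicate 2 (adjusted p = 0.0607), without LPS+EVs replicate 1 (0.0704) and without a filter (0.051, range over all alternatives 0.000233 to 0.0704). The lysosomal protease Ctsb rose by log2 0.89 (adjusted p = 0.00128).

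For MHC class I, which shows peptides to CD8 T cells, 11 of 21 genes rose and 5 fell (median 0.70, and 12 and 2 with median-of-ratios scaling). Of all tested genes 13.5% rose and 30.8% fell. The count of falls is near that share and is not read as a result about the list. Without Control replicate 1 or LPS+EVs replicate 2, 6 and 7 rose, and without Control replicate 2 or LPS+EVs replicate 1, 3 fell. Nlrc5, the activator of class I genes, rose from 3.73, 5.56 and 4.45 to 15.8, 15.1 and 12.3 FPKM (log2 1.47, adjusted p = 0.000702). The class I chain RT1-CE1 rose by log2 1.39 and RT1-T24-1 fell (log2 -1.63, adjusted p for the pair = 0.000768 and 0.000558), though class I chains are near-identical copies whose reads the counting may have split. The chaperone Canx fell from 169, 156 and 162 to 103, 91.1 and 87.4 FPKM (log2 -0.78, adjusted p = 0.000652).

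Receptors for uptake, and genes linked to IL-4 and alternative activation, were mostly lower. In the IL-4-linked list 11 of 20 genes fell and 3 rose (median -1.19). Of all tested genes 30.8% fell and 13.5% rose, so the rises are near the overall share. Mrc1, the mannose receptor, fell from 192, 114 and 189.6 FPKM to 9.5, 9.98 and 9.49 FPKM (log2 -3.92, SE 0.19, adjusted p = 4.13e-06), and all 3 LPS+EVs libraries were nearly alike. Il1rl1, the receptor for interleukin-33 (log2 -3.35), the decoy receptor Il1r2 (-2.75) and the lectin Clec10a (-3.42) also fell (adjusted p = 2.44e-05, 0.000219 and 0.00146). Arg1, the arginase that competes with Nos2 for arginine, went the other way, from 89.9, 49 and 104 to 725, 373 and 443 FPKM (log2 2.66, SE 0.37, adjusted p = 0.000826). Among scavenger, lectin and phagocytic receptors 20 of 39 fell and 5 rose (median -0.99), with the C-type lectins Clec4a1 (65.5, 52.7 and 85.7 against 3.45, 2.84 and 3.24 FPKM, log2 -4.02) and Clec4a3 (log2 -3.76) foremost (adjusted p = 7.59e-06 and 2.09e-05).

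**Figure D3:**
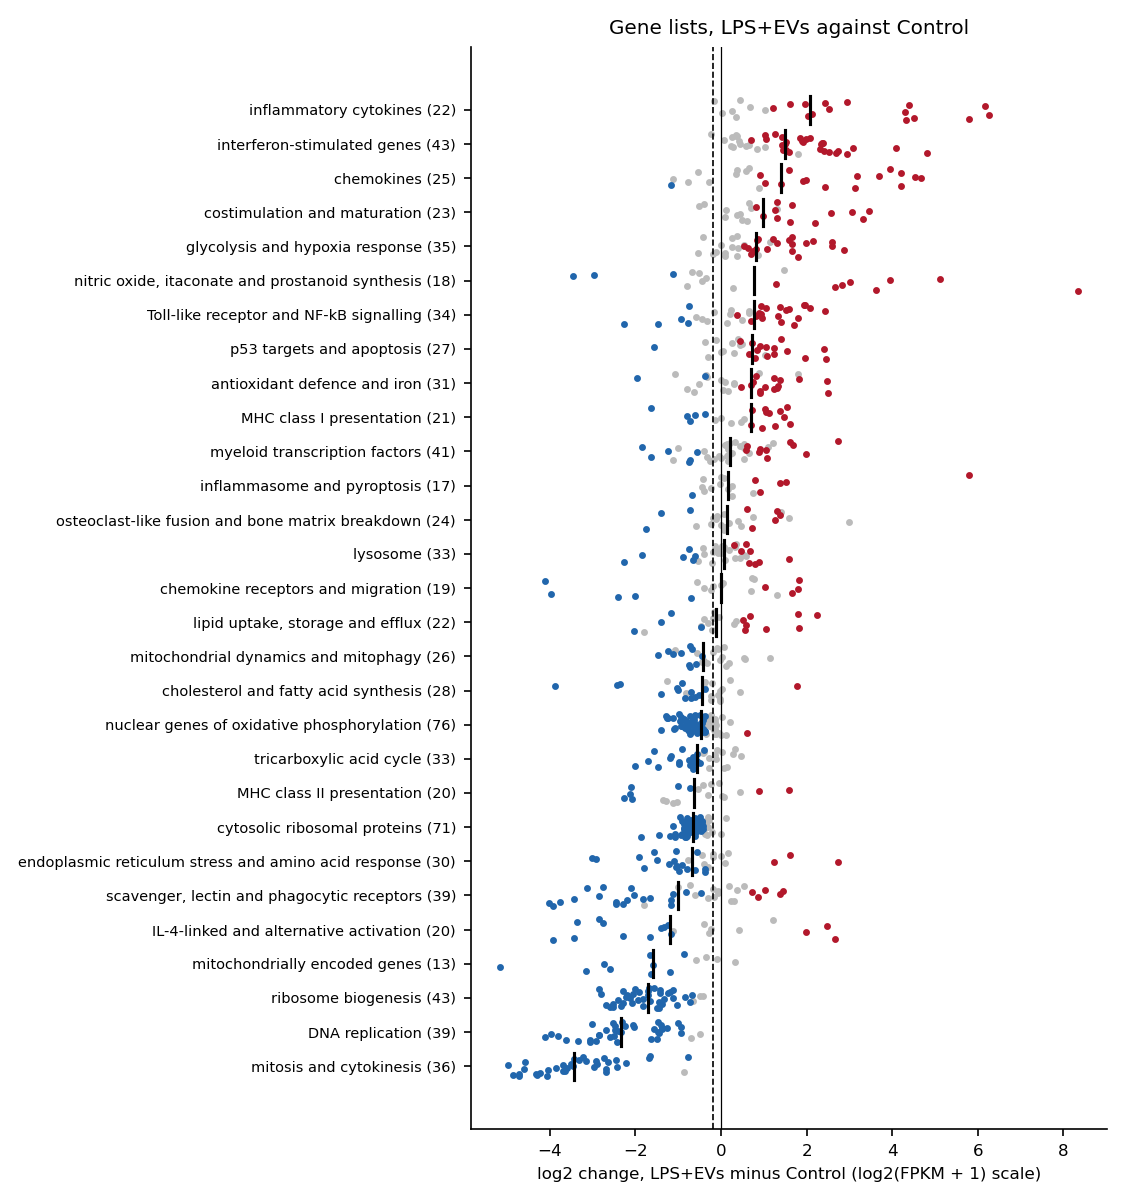
Each row is a gene list (number of tested genes in brackets) and each point a gene, placed by its log2 change in LPS+EVs against Control; red and blue points passed as higher and lower, grey did not pass, and black bars are list medians. Cytokines lie farthest right (median 2.08) and mitosis genes farthest left (median -3.44), and the dashed line is the median of all tested genes (-0.19).

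The enzymes of small mediators split. In the list of nitric oxide, itaconate and prostanoid synthesis 8 of 18 genes rose and 3 fell (median 0.78, and 9 and 5 with the replicate block). Of all tested genes 13.5% rose and 30.8% fell, so falls in this list were under the overall share. Beside Nos2 and Ptges, Ass1, which regenerates arginine, rose from 10.5, 19.1 and 9.51 to 169, 237 and 111 FPKM (log2 3.62, adjusted p = 0.000138). Acod1, which makes itaconate, rose from 24.6, 72.8 and 57.2 to 412, 351 and 401 FPKM (log2 3.02, SE 0.33, adjusted p = 0.000251). Alox5ap, needed for leukotriene synthesis, fell from 106, 60.3 and 98.7 to 11.6, 7.07 and 12.2 FPKM (log2 -2.97, adjusted p = 6.65e-05).

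Among 35 genes of glycolysis and the hypoxia response 20 rose and none fell (median 0.83, and 26 with median-of-ratios scaling). Slc2a1, the glucose transporter, went from 116, 108 and 121 FPKM to 392, 497 and 331 FPKM (log2 1.80, SE 0.17, adjusted p = 0.000111). Hif1a, the transcription factor of the hypoxia response, stood at 57.9, 31.2 and 74.3 FPKM in Control and at 129, 127 and 126 FPKM in LPS+EVs (log2 1.30, SE 0.31, adjusted p = 0.00992). The enolase Eno2 (log2 2.60), the lactate exporter Slc16a3 (1.66) and Pfkfb3, which speeds the committed step of glycolysis (1.65), rose with adjusted p of 0.000192 or less.

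Of 76 nuclear genes of oxidative phosphorylation 46 fell and 1 rose (median -0.47). With median-of-ratios scaling 26 fell and 2 rose, so this count moves with the scaling. The subunits with the smallest adjusted p, picked for that, were ATP synthase chains Atp5f1a (432, 400.4 and 369 against 166, 179 and 161 FPKM, log2 -1.24, adjusted p = 7.41e-05), Atp5f1b (log2 -1.26) and Atp5mc3 (-1.27), and Ndufb5 of complex I (-1.39). They kept their calls in every alternative, which a choice by smallest adjusted p favours and which does not extend to the list. For the tricarboxylic acid cycle, falls numbered 20 of 33 and rises 0 (13 and 2 with median-of-ratios scaling, and 1 higher with the block and without LPS replicate 2 or LPS+EVs replicate 2). The falls include Mdh2 (log2 -1.17), the phosphatase Pdp1 that activates pyruvate dehydrogenase (-1.57), Suclg1 (-0.98) and Sdha (-0.74), each with an adjusted p of 0.00111 or less. Of genes for mitochondrial dynamics, mitophagy and biogenesis, 10 of 26 fell and none rose (7 and 5 with median-of-ratios scaling, 13 and 2 with the block, and 1 and 2 higher without Control replicate 2 and without LPS replicate 2). The count of falls in the main fit is near the 30.8% of all tested genes that fell and is not read as a result about the list. Among its members, Tfam, which packages and transcribes mitochondrial DNA, fell from 21.5, 17.9 and 19.1 to 11.5, 6.84 and 11.6 FPKM (log2 -0.93, SE 0.21, adjusted p = 0.00819), as did Tfb2m, its partner in transcription (log2 -1.25, adjusted p = 0.00811), the fusion factor Mfn1 (-0.73) and the prohibitin Phb2 (-1.13).

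The 13 protein genes of mitochondrial DNA, which all encode respiratory chain subunits, fell in 9 cases and rose in none (median -1.58). All 7 complex I subunits were among those that fell. ND4L stood at 292, 209 and 454 FPKM in Control, 129.6, 60.7 and 84.8 FPKM in LPS and 6.28, 23.9 and 2.3 FPKM in LPS+EVs (log2 -5.17 against Control, SE 0.66, adjusted p = 0.000534). The 3 groups did not overlap, though the difference between LPS+EVs and LPS did not pass by limma (adjusted p = 0.999).

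ND3 stood at 484, 403 and 614 FPKM in Control and 80.9, 73.3 and 27.9 FPKM in LPS+EVs, with 254, 112 and 255 FPKM in LPS (log2 -3.14 against Control, SE 0.45, adjusted p = 0.000904). ND4 went from 975, 838 and 1246 to 212, 133 and 159 FPKM (log2 -2.60, adjusted p = 0.000748) and ND6, the subunit encoded on the opposite strand from the others, from 27.9, 21.5 and 24.9 to 2.74, 1.7 and 4.79 FPKM (log2 -2.72, adjusted p = 0.000816). For ND3 and ND4 each LPS+EVs library was also below each LPS library, though for ND4 the highest LPS+EVs library nearly matched the lowest LPS library (392, 213 and 602 FPKM in LPS). How many of all tested genes lie below LPS in this way was not counted. By limma 0 of 11141 genes passed between LPS+EVs and LPS in the main fit. ND1 (log2 -1.64), ND2 (-1.19) and ND5 (-1.58) fell less (adjusted p = 0.000557, 0.00175 and 0.00862).

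Of the subunits of the other complexes, CYTB and ATP8 passed as lower, and COX1, COX2, COX3 and ATP6 did not pass. CYTB of complex III fell from 2755, 2435 and 2954 to 1841, 1153 and 1537 FPKM (log2 -0.87, adjusted p = 0.012, and 0.0522 without a filter). Of complex IV, COX1 was the most abundant and overlapped between groups, at 8996, 8174 and 10143 FPKM in Control and 14587, 10992 and 9402 FPKM in LPS+EVs (log2 0.34, 95% interval -0.17 to 0.85, adjusted p = 0.252). COX2 was at 4020.2, 3668 and 4865 FPKM against 3756, 2793 and 2039 FPKM (log2 -0.58, adjusted p = 0.065, 0.0472 with the block and 0.0208 without LPS+EVs replicate 1). COX3 (log2 -0.09, interval -0.69 to 0.51) and ATP6 (-0.35, interval -0.96 to 0.26) did not pass (adjusted p = 0.805 and 0.315), and the sign for COX3 turned with median-of-ratios scaling. ATP8 fell from 105, 70.0 and 110.3 to 31.2, 29.7 and 26.1 FPKM (log2 -1.66, adjusted p = 0.0346), a call that ended with 9 alternatives, among them leaving out Control replicate 1 or 3 or any LPS+EVs library (adjusted p up to 0.127). ND4L overlaps ND4 on the mitochondrial genome and ATP8 overlaps ATP6, so the values of these pairs depend on how reads in the overlap were counted, which is not given in the sources used here.

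**Figure D4:**
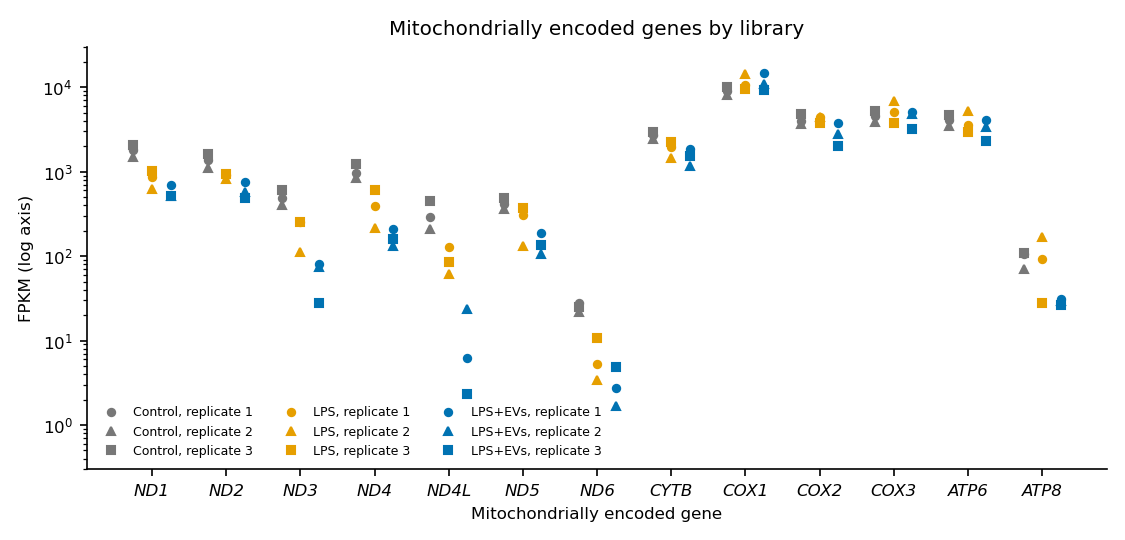
FPKM on a log axis of the 13 mitochondrially encoded protein genes in each of the 9 libraries, with colour for the group and marker shape for the replicate number. The complex I genes step down from Control to LPS+EVs, most of all ND4L (209 to 454 against 2.3 to 23.9 FPKM), while COX1 overlaps between groups.

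Lipid genes went both ways, where all tested genes were 13.5% higher and 30.8% lower. In cholesterol and fatty acid synthesis 13 of 28 genes fell and 1 rose (7 and 1 with median-of-ratios scaling, median -0.45), and 7, 7 and 8 fell without Control replicate 1, LPS+EVs replicate 2 and LPS+EVs replicate 3. Fasn, the fatty acid synthase, fell from 43.3, 37.9 and 30.8 to 1.54, 0.996 and 2.5 FPKM (log2 -3.86, SE 0.40, adjusted p = 0.000181), as did Acaca, which makes its substrate (log2 -2.43, adjusted p = 0.00025). Insig1, which holds sterol synthesis in check, was the gene that rose (log2 1.78, adjusted p = 0.00198). In the list of lipid uptake, storage and efflux 8 of 22 genes rose and 4 fell (median -0.11, and 9 and 2 with median-of-ratios scaling, where the median was 0.13). Without any 1 Control library or LPS+EVs replicate 2, 4 to 5 rose, and without Control replicate 1 or LPS+EVs replicate 1 or 3, 2 fell. Hilpda, an inhibitor of lipolysis on lipid droplets, rose with little spread, from 15.5, 14.1 and 16 to 77, 74 and 75.4 FPKM (log2 2.24, SE 0.09, adjusted p = 1.82e-06), the cholesterol exporter Abca1 rose by log2 1.82 (adjusted p = 0.00014) and the lipase Lpl fell (log2 -2.03, adjusted p = 0.000122).

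Genes of cell division fell almost throughout. In mitosis and cytokinesis 35 of 36 genes fell and none rose (median -3.44), and in DNA replication 37 of 39 fell and none rose (median -2.33). Both counts were the same with median-of-ratios scaling. Ccna2 went from 39.4, 32.3 and 32.7 FPKM to 0.332, 0.161 and 0.232 FPKM (log2 -4.85, SE 0.16, adjusted p = 1.06e-06), Cdc20, which activates the anaphase-promoting complex, from 45.8, 46.9 and 38.4 to 1.3, 1.47 and 1.42 FPKM (log2 -4.22, adjusted p = 1.06e-06), and Mki67, the Ki-67 antigen of cycling cells, from 50.4, 37.7 and 45.2 to 1.81, 1.95 and 1.33 FPKM (log2 -4.07, SE 0.21, adjusted p = 4.98e-06). Treated libraries kept residual values of these genes that lay far under the lowest Control library. In replication, the helicase subunits Mcm4 (log2 -2.92) and Gins1 (-3.96), the polymerase Pole (-2.48) and Uhrf1, which copies DNA methylation (-3.02), had the smallest adjusted p (3.77e-06 or less).

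Promoters of mitotic genes often carry CCAAT boxes and the cell cycle homology region TTTGAA. These are shown in capitals, on either strand, in the last 150 bases before the start of 3 mitotic genes that fell: Ccnb2 (chr8:79981659-79981808, minus strand), Cdc20 (chr5:137255800-137255949, minus strand) and Top2a (chr10:84473094-84473243, minus strand), again from RefSeq in build GRCr8.
Ccnb2: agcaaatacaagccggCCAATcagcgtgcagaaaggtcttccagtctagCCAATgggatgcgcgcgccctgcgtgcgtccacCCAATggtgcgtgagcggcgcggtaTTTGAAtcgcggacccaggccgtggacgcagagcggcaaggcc
Cdc20: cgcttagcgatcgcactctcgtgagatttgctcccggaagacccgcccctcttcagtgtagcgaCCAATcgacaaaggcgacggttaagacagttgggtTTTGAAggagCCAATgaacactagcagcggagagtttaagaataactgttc
Top2a: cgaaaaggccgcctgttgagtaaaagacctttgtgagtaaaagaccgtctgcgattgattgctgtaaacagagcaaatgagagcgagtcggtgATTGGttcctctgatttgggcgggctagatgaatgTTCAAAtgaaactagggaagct
Ccnb2 holds 3 CCAAT boxes and 1 TTTGAA, Cdc20 holds 2 and 1, and in Top2a both words read as reverse complements. Both words stood in the 250 bases before the start in 13 of 30 matched mitosis genes (43.3%) and in 1 of 30 matched DNA replication genes (3.33%), against 4.03% of the promoters of tested genes. CCAAT was in 22 of 30 mitosis genes (73.3%), 18 of 30 replication genes (60%) and 36.3% of the promoters of tested genes. TTTGAA was in 15 of 30 mitosis genes (50%), 2 of 30 replication genes (6.67%) and 10.3% of the promoters of tested genes.

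Of 27 p53 targets and apoptosis genes 15 rose and 1 fell (median 0.73), where 13.5% and 30.8% of all tested genes did. Cdkn1a, the inhibitor of cyclin-dependent kinases, went from 77.3, 72.7 and 74.6 to 412, 501 and 339 FPKM (log2 2.45, SE 0.21, adjusted p = 6.65e-05). Mdm2, the ligase that degrades p53 (log2 1.96, adjusted p = 1.77e-05), the death receptor Fas (1.24, adjusted p = 0.000515) and the survival factor Mcl1 (0.92, adjusted p = 0.000597) rose too.

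Genes that make ribosomes fell. In ribosome biogenesis 40 of 43 genes fell and none rose (median -1.70, 37 with median-of-ratios scaling). Myc, the growth factor-driven activator of these genes, fell from 63, 56.7 and 60.2 FPKM to 5.97, 10.6 and 6.29 FPKM (log2 -2.86, SE 0.21, adjusted p = 2.6e-05), and the nucleolar proteins Npm1 (-1.50) and Ncl (-1.46) fell as well (adjusted p = 0.00017 and 0.000589). Of cytosolic ribosomal proteins 58 of 71 fell and none rose (median -0.65), and 31 fell with median-of-ratios scaling. Rps2 went from 880.2, 806 and 745 to 386, 349 and 377 FPKM (log2 -1.12, adjusted p = 0.00026) and Rpl8 from 979, 899 and 791 to 343, 363 and 469 FPKM (log2 -1.19, adjusted p = 0.000434). Many ribosomal protein genes have processed copies in the genome, so their reads may have been split or lost in counting.

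In the list of endoplasmic reticulum stress and amino acid response 18 of 30 genes fell and 3 rose (median -0.68). Of all tested genes 30.8% fell and 13.5% rose. The folding factors Hsp90b1 (509.6, 526 and 516 against 265, 264 and 256 FPKM, log2 -0.98), Pdia6 (-1.06), Dnajc3 (-1.03) and Creld2 (-1.56) fell with adjusted p of 0.000261 or less. The stress-induced factor Atf3 was among those that rose, from 24.9, 59.2 and 27.9 to 258, 283 and 179 FPKM (log2 2.73, adjusted p = 0.000948).

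Of 31 antioxidant and iron genes 15 rose and 2 fell (median 0.70, and 17 and 4 with the block), where 13.5% and 30.8% of all tested genes did in the main fit. The falls numbered 0 to 5 when 1 library was left out, with 0 without Control replicate 3 or LPS+EVs replicate 2 or 3, 1 without Control replicate 1 or LPS+EVs replicate 1, 4 without LPS replicate 3 and 5 without LPS replicate 2. Fth1, the heavy chain of the iron store ferritin, had the largest share of reads of any gene in LPS+EVs, at 2.85 ± 0.458% in LPS+EVs against 0.504 ± 0.037% in Control (n = 3 each). Its FPKM were 6490.5, 5604 and 6144 in Control and 40722, 31199 and 31106 in LPS+EVs (log2 2.49, SE 0.22, adjusted p = 7.7e-05, and 0.0657 without a filter). Hmox1, which frees iron from heme, rose from 187, 68.2 and 161 to 897, 567 and 742 FPKM (log2 2.50, SE 0.37, adjusted p = 0.00116). The metal transporters Slc11a1, found on phagosomes (log2 1.83), and Slc11a2, which imports ferrous iron (1.25), rose with adjusted p of 6.29e-06 and 9.01e-05.

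The lists in this group are to be read against 13.5% higher and 30.8% lower of all tested genes. Lysosome genes had 8 higher and 6 lower of 33 (14 and 4 with median-of-ratios scaling, 13 and 9 with the block). Without any 1 Control library or LPS+EVs replicate 1, 5 were higher. The lysosome median was 0.06. Ctsb, given above with MHC class II, was among the 8 that rose (log2 0.89). The protease Ctsc fell from 91.2, 38.8 and 89.2 to 9.85, 15.6 and 15.4 FPKM (log2 -2.27, adjusted p = 0.00236), and the hydrolases Gusb (-1.85) and Hexa (-0.89) fell. Of inflammasome and pyroptosis genes 5 of 17 rose and 1 fell (6 and 3 with the block, and 0 to 2 lower when 1 library was left out). Apart from Il1b the rises included Ninj1, which ruptures the membrane of dying cells (181, 189 and 185 against 478, 505 and 609.9 FPKM, log2 1.51, adjusted p = 3.08e-05), the channel Panx1 (0.80) and the DNA sensor Aim2 (0.91). In the list of osteoclast-like fusion and bone matrix breakdown 5 of 24 rose and 3 fell (8 and 2 with median-of-ratios scaling, 9 and 3 with the block), with the proteinase Adamts4 up (log2 1.32, adjusted p = 0.000151) and the fusion gene Ocstamp (log2 -1.75, adjusted p = 0.00693) and the carbonic anhydrase Car2 (-1.40, adjusted p = 0.00293) down. Among myeloid transcription factors 10 of 41 rose and 6 fell (14 and 4 with median-of-ratios scaling, and 4 rose without Control replicate 1). Beside Atf3, Hes1, a target of Notch, rose from 0.224, 0.0535 and 0.24 to 3.14, 1.8 and 3.57 FPKM (log2 1.68, adjusted p = 0.000344), and Egr2 (log2 -1.85) and Cebpd (-1.64) fell (adjusted p = 0.000656 and 0.000895).

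Counts of cell type markers are read against the 13.5% higher and 30.8% lower of all tested genes. In the main fit the counts of the dendritic and stromal lists are at or below these shares. Of dendritic cell markers 3 of 12 tested genes fell (Clec10a, Cd1d1 and Sirpa) and none rose, with summed levels of 676 to 984 FPKM in Control and 434 to 709.7 FPKM in LPS+EVs. With the replicate block 3 rose and 3 fell, and 1 rose without Control replicate 3, LPS replicate 2 or 3 or LPS+EVs replicate 1. Of macrophage and monocyte markers 10 of 19 fell and 2 rose, with sums of 7515 to 9470.5 and 4571 to 7449 FPKM; Cd14 (321, 301 and 285 against 738, 1027 and 679.9 FPKM, log2 1.41, adjusted p = 0.00135) and Cd68 (log2 0.59) rose and the high-affinity Fc receptor Fcgr1a fell (log2 -0.82, adjusted p = 0.00364).

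Neutrophil markers had 1 higher and 3 lower of 7 tested (5 lower without Control replicate 2), with sums of 58.9 to 296 FPKM in Control and 123 to 278 FPKM in LPS+EVs, the latter carried mostly by Lcn2 (204, 114 and 252 FPKM). S100a8, an abundant neutrophil protein, stood at 187, 6.75 and 81.6 FPKM in Control and 3.14, 0.835 and 8.87 FPKM in LPS+EVs (log2 -3.55, adjusted p = 0.0284), and its call ended without Control replicate 1 (0.0951) or 3 (0.0894), without LPS+EVs replicate 1 (0.071) or 2 (0.0903), without a filter (0.068) and with limma-voom on recovered reads (0.141). Erythroid and megakaryocyte markers had 3 higher (among them Itga2b, by log2 1.73) and 2 lower (Hba-a2 and Hba-a1) of 6. For T and NK cell markers the counts were 1 and 4 of 6, the rise being Il7r and the falls Cd8a, Cd8b, Cd4 and Lck (log2 -1.93 to -0.67), with sums of 66.5 to 102 and 91.2 to 108 FPKM. The Il7r call ended without Control replicate 1 or 2 or LPS+EVs replicate 1 or 2, and the Cd4 call without Control replicate 3 (0.0535) or LPS+EVs replicate 1 (0.0517). The B and plasma cell list had 1 tested gene, Blnk, which fell (log2 -1.68, adjusted p = 0.00134). The mast cell, basophil and eosinophil list had 2 higher of 3, Gata2 (log2 1.15) and Siglec5 (3.08), and 1 lower with the block.

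Stromal and mesenchymal markers had 2 higher and 1 lower of 34, with sums of 3417 to 4684 FPKM in Control and 3398 to 5974 FPKM in LPS+EVs. With the replicate block 6 were higher and 6 lower, and with libraries numbered 1 and 3 alone 9 and 3. When 1 library was left out 0 to 4 were higher and 0 to 3 lower. Thy1 was among the rises (24, 16.7 and 19.1 against 57.1, 33.6 and 48.3 FPKM, log2 1.16, adjusted p = 0.0146), and the fall was Pparg (log2 -1.39, adjusted p = 0.0217). The Thy1 call ended without Control replicate 2 (0.0501) or LPS+EVs replicate 1 (0.0536). The Pparg call ended without Control replicate 1 or 2 or LPS+EVs replicate 1 or 3, without a filter and with either other scaling (adjusted p up to 0.08). The part of changing cell proportions in any result above was not tested.

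The LPS group received no EVs, and its difference from LPS+EVs was estimated in the same fit. By limma 0 of 11141 genes passed between LPS+EVs and LPS (0%), and 295 genes (2.65%) had an unadjusted p under 0.05. Limma-voom on recovered reads and the fit with the replicate block also gave 0, and leaving out LPS replicate 2 gave 1. The intervals and p-values of this contrast, here and below, come from the main fit without the block. LPS and LPS+EVs libraries of the same number deviated together (r of 0.646, 0.863 and 0.695), which can widen intervals that ignore the number. The 95% interval of this difference lay within 1 log2 unit of 0 for 9564 genes (85.8%), so that for those a change of more than 2-fold on this scale lies outside the interval, while for the others the data do not limit it so closely. Over all tested genes the median width of the interval was 0.853. Among the 10 largest rises against Control the interval was narrowest for Cxcl2 (-0.07, -0.38 to 0.23) and widest for Il12b (0.13, -1.84 to 2.11), with Nos2 at 0.01 (-0.51 to 0.54). Among the 10 largest falls it was narrowest for Top2a (-0.04, -0.39 to 0.31) and widest for Hba-a2 (-0.35, -1.89 to 1.19).

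The lowest of these differences among the genes named here were mitochondrial. By list, the median difference from LPS was -0.60 for mitochondrially encoded genes and -0.26 for ribosome biogenesis. It was 0.26 for cytosolic ribosomal proteins and -0.007 over all tested genes, and these medians were not tested. The log2 difference from LPS was -3.39 for ND4L (-4.89 to -1.90, unadjusted p = 0.000674, adjusted p = 0.999 by limma), -1.80 for ND3 (-2.81 to -0.78), -1.37 for ATP8 (-2.59 to -0.14) and -1.15 for ND4 (-1.96 to -0.35), and none passed after adjustment over all genes. Set beside each other, and sharing the Control libraries, the differences from Control were -1.78 in LPS and -5.17 in LPS+EVs for ND4L, -1.34 and -3.14 for ND3, -1.44 and -2.60 for ND4, 8.33 and 8.34 for Nos2 and -4.27 and -4.07 for Mki67.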

How the data were processed

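RNA was measured in 9 libraries, 3 each of Control, LPS and LPS+EVs. Per the submitters' processing notes, fastp, HISAT2, HTSeq, R 3.2.0 and the build mRatBN7.2 were used, and the settings are not given in the sources used here. The authors deposited FPKM values for 20442 genes. The unit was taken from the values: whole reads were recovered for all 18833 genes seen in 2 or more libraries, within 0.002 reads, and gave whole gene lengths, within 0.02 bases, for 99.8% of 1953 short genes checked in 1 library. Recovered totals were 32148519 to 39407116 reads. No 2 libraries of a group agreed within counting error (smallest chi-square per degree of freedom 42.8).

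Genes with 1 FPKM in 3 libraries were kept and 1 was added before taking log2. A model with 1 mean per group over all 9 libraries and a variance trend was fitted in limma (version 3.58.1, R 4.3.3). P-values are two-sided, Benjamini-Hochberg adjusted over 11141 genes, with a threshold of 0.05. The fit was tested on simulated data. Alternatives were median-of-ratios and TMM scaling, no filter or one of 5 FPKM, 0.1 added in place of 1, a fit without the LPS group (6 libraries), leaving out each library in turn, libraries numbered 1 and 3 alone, and limma-voom on the recovered reads. Libraries of the same number tended to deviate together, with r of 0.284 to 0.863 over 9 pairs between groups. For different numbers r was -0.745 to 0.426, so the ranges overlap. The numbers may therefore pair the cultures, and a model with the number as a block is an alternative. This possible pairing comes from the data, not from the labels.

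The 37 gene lists hold 1031 symbols, of which 999 matched the table, 25 of them through gene IDs or synonyms. Members and lists were chosen with earlier results of these data known. Named genes are the 10 largest rises and falls among genes that passed, with no overlap and at least 5 FPKM in a group. Symbols starting with LOC, RGD, AABR, AC, AY, NEWGENE or Mir were left out of that ranking. Also named are a panel of 22 genes, the 4 tested members of each list with the smallest adjusted p, and members of marker lists. All 13 mitochondrially encoded genes, and the genes whose promoters are printed, were chosen after their values were seen. A further rule, for genes that also passed between LPS+EVs and LPS, named none. Some genes that the rule names are not reported here. Promoters came from RefSeq (GRCr8). Tables and plots were made with matplotlib 3.10.9, numpy 2.4.6 and pandas 2.3.3 under Python 3.11.15.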

Additional observations from a re-analysis of the deposited data

How the results depend on the processing

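The counts of 1505 higher and 3436 lower genes stayed within 1.5 times in each of 19 refits, which varied scaling, filter, added value, libraries, block and model, except that 2912 were higher when median-of-ratios scaling was joined to the replicate block. Asking for 2-fold changes left 588 and 1537. Leaving out 1 library at a time gave 1071 to 1796 higher and 2522 to 3986 lower genes. The replicate block alone gave 1984 and 4162, and changed no call named here other than those given beside the results and those of Cxcl12, Mcpt2 and Lyz2. Between LPS+EVs and LPS, leaving out 1 library gave 0 to 1 genes, the 1 without LPS replicate 2. Of 158 named genes that passed, 148 passed in every refit that tested them, and none changed direction. Of 14 that did not pass, 4 passed in no refit. Many named genes were picked for a large change or a small adjusted p in the main fit. Their share therefore does not describe all called genes, for which it was not computed. Direction turned for Itgax (log2 0.039 with median-of-ratios scaling, with and without the block) and for COX3 (0.15 with that scaling, with and without the block, 0.11 with TMM scaling and with limma-voom on recovered reads, and a range of -0.22 to 0.12 when 1 library was left out, above 0 without Control replicate 3 (0.0065) and without LPS+EVs replicate 3). Of the 74 list counts, 15 moved by over 1.5 times with median-of-ratios scaling, 14 with the block and 1 to 12 when 1 library was left out. For genes near 0 FPKM in a group, depth limits the size of a change.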

Other observations

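Of 261 tested genes annotated as non-coding in the deposited table, 61 were higher (23.4%) and 43 lower (16.5%) in LPS+EVs than in Control. Of 10880 tested protein-coding genes 1444 were higher (13.3%) and 3393 lower (31.2%). The difference between these shares was not tested.

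Some of the 12 genes with most reads, picked for that, took a large share of reads in the treated cells. Ftl1, the ferritin light chain, took 0.717 ± 0.175% of assigned reads in LPS+EVs and 0.269 ± 0.0231% in Control (mean ± SD, n = 3 each), and Nos2 took 0.787 ± 0.238% against 0.00177 ± 0.000131%. Actb, the cytoplasmic actin, took 0.345 ± 0.0354% against 0.774 ± 0.0205%, and Fn1, which encodes fibronectin, 0.278 ± 0.172% against 0.778 ± 0.324%. The 10 genes with most reads together held 8.76% to 10.6% of reads in LPS+EVs libraries and 7.18% to 7.87% in Control libraries.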
